A study of Mus musculus with 6 samples.

Results

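The ABC transporter family is described here in primary CD8+ T cells from the spleen of wildtype mice that were exposed for 2 h to the anthracycline daunorubicin (DNR), which inserts itself into DNA and traps topoisomerase II on it, or to its solvent DMSO. Members were all rows of the deposited expression table whose RefSeq transcript belongs to a mouse gene with a symbol starting with Abca, Abcb, Abcc, Abcd, Abce, Abcf or Abcg, apart from Abca1. The rule found 6 transcripts of 5 genes (Abca2, Abca3, Abcb6, Abcc5 and Abcf2) among 1037 transcripts of 847 matched genes. The study was about the effect of DNR on T cell activation, and it held 3 DMSO and 3 DNR samples, with no untreated group. The labels name the samples of a group biological replicates without naming their mice, so p-values measure only the spread between these samples, which may be technical.

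ABC (ATP-binding cassette) proteins bind and hydrolyse ATP through paired nucleotide-binding domains, and most of them use that energy to move a substrate across a membrane. Subfamily A moves lipids, subfamily B holds peptide, drug and porphyrin carriers, and subfamily C exports organic anions, drugs and nucleotides. Subfamilies E and F lack membrane-spanning segments and work with the ribosome. Several family members are known as exporters of anthracyclines, above all P-glycoprotein (Abcb1a and Abcb1b in mice), MRP1 (Abcc1) and BCRP (Abcg2).

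Values are FPKM, the fragments of a transcript divided by its length and by the size of the library, recovered from the deposited log2(FPKM + 1). The read depth of the samples is unknown, because no totals are kept in FPKM. The table lists 583 to 594 transcripts above 0 per sample. Of 388 transcripts with at least 1 FPKM in at least 3 samples, 99.7% were called different between the groups (limma, adjusted p under 0.05) and 99.7% had groups that did not overlap. With no filter on low values, 242 of all 1037 transcripts were called higher in DNR and 324 lower (limma). Rows were very probably selected on the contrast tested here. A call on a member is therefore no independent evidence of a difference, and what the members add is their direction, their size and how transcripts of 1 gene moved against each other. All directions rest on reading column codes with O as DMSO and those with D as DNR, which was done from the names alone.

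The element that unites these genes is the Walker A motif, the loop of the nucleotide-binding domain that wraps the phosphates of ATP. It is shown because all 5 genes hold it. The symbols stand for the ATP-binding cassette, of which the motif is part, so sharing it is not independent of the choice by symbol. The coding sequences were searched in frame for the codons of the Walker A motif, and the 24 bases that matched are in capitals with 6 coding bases on either side, 5′ to 3′ on the gene's strand (GENCODE M21, GRCm38). The listed transcripts of Abca3, Abcb6 (the curated one) and Abcf2 were used, and for Abca2 the longest coding transcript of the gene.
Abca2 first copy: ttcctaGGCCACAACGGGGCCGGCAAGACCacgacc
Abca2 second copy: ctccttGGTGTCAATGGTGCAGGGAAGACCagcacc
Abca3 first copy: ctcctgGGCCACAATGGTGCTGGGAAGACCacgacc
Abca3 second copy: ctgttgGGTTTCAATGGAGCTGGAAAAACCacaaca
Abcb6: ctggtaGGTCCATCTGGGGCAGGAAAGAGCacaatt
Abcf2 first copy: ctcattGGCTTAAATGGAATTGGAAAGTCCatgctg
Abcf2 second copy: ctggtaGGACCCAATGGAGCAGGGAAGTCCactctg

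Abca2, Abca3, Abcf2 and Abcc5, whose copies are not shown, hold 2 copies. Abcb6 holds 1, and its protein is known to pair with a second chain. The capitals of Abca2 lie at chr2:25439216-25439239 in exon 20 and chr2:25445637-25445660 in exon 40 of 48, and those of Abca3 at chr17:24384531-24384554 in exon 13 and chr17:24405326-24405349 in exon 27 of 32. The Abcb6 copy lies at chr1:75173623-75173646 in exon 14 of 19, on the minus strand. In Abcf2, also on the minus strand, the first copy spans the junction of exons 3 and 4 (chr5:24573769-24574182, with the intron between them) and the second lies at chr5:24568232-24568255 in exon 10 of 14. The first copies of Abca2 and Abca3 are identical at 20 of 24 bases, and that of Abca2 and the Abcb6 copy at 15 of 24. Likeness did not follow subfamily or copy alone. The second Abca2 copy matched the first Abca3 copy at 20 of 24 and the second Abcf2 copy at 19 of 24. The motif was found in 48 of 50 ABC genes and in 2.13% of 21760 coding genes. A search for the codons of the family's signature motif (LSGGQ) matched 1 time in Abcc5 and 0 times in Abca2, Abca3, Abcb6 and Abcf2. That search took only these exact residues and matched in 25 of 50 ABC genes. Having 0 matches therefore does not show that a gene lacks a signature motif.

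The data show 4 listed transcripts higher in DNR, 1 each of Abca2, Abca3, Abcb6 and Abcf2, and a second Abcb6 transcript that was nearly gone there. The 4 rises ran from 0.52 to 0.93 on the log2(FPKM + 1) scale, and the fall of the second Abcb6 transcript was larger than any of them. The transcript of Abcc5 was seen in 1 sample. Of the 5 transcripts that passed the filter on low values, 4 were called higher and 1 lower (limma), where over all transcripts tested 43.0% were called higher and 56.7% lower. Bringing all samples to the same median of the tested transcripts moved the split over all of them from 167 higher and 220 lower to 167 higher and 106 lower. It left the 5 members with the same calls. The median change was 0.53 over these 5 members, which include both Abcb6 transcripts, and -0.22 over all 388. These medians describe the listed transcripts and test no trend of the family. Abcf2 passed the filter only through its DNR samples and the second Abcb6 transcript only through its DMSO samples. The direction of those 2 was therefore fixed once they were tested, and their groups could not overlap.

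**Figure D1:**
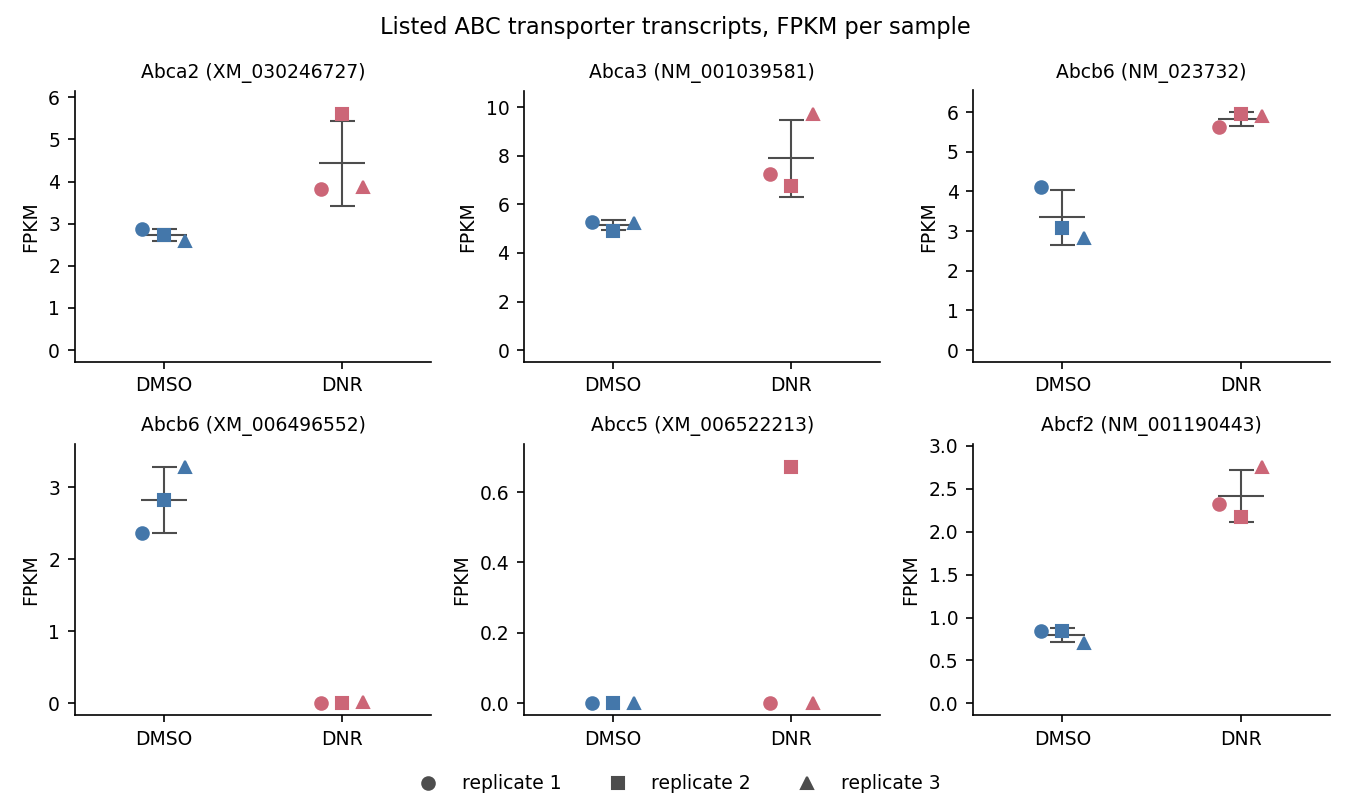
FPKM (vertical axis, linear, own scale in each panel) of the 6 listed ABC transporter transcripts in DMSO and DNR samples. Points are samples, with the symbol giving the replicate number; the wide tick and bars are the mean and SD over 3 samples, left out where a sample is at 0. In 4 panels the 3 DNR samples lie above the 3 DMSO samples, in that of the second Abcb6 transcript all 3 lie below, and Abcc5 has 1 sample above 0.

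Abca3 (chromosome 17, 24351921 to 24410204, plus strand; GRCm38.p6) encodes the phospholipid pump that loads surfactant lipid into lamellar bodies in the lung. Its listed curated transcript, NM_001039581, was the highest of the members per length in every sample. In DMSO replicates 1 to 3 it stood at 5.29, 4.90 and 5.22 FPKM, and in DNR replicates 1 to 3 at 7.24, 6.74 and 9.72 FPKM. The DMSO samples lay close together, every DNR sample lay above them, and DNR replicate 3 stood apart from the other two. The means were 5.14 ± 0.208 and 7.90 ± 1.60 FPKM (SD, n = 3), a change of 0.52 ± 0.14 on the log2(FPKM + 1) scale (SE; limma, adjusted p = 0.00861; 95% interval 0.19 to 0.86). The gene has 4 RefSeq transcripts, of which 1 is listed, so the value is not that of the whole gene.

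Abca2 (chromosome 2, 25428599 to 25448544, plus strand) encodes a transporter of endosomes and lysosomes that is tied to sphingolipid and cholesterol handling and is best known in myelin-forming cells. The predicted transcript XM_030246727, which is 1 of 10 RefSeq transcripts of the gene, had DMSO values of 2.87, 2.72 and 2.58 FPKM and DNR values of 3.83, 5.60 and 3.87 FPKM, in the order of the replicates. The groups did not overlap, and DNR replicate 2 was the high one. The means were 2.72 ± 0.145 and 4.43 ± 1.01 FPKM (SD, n = 3). By limma the change was 0.53 ± 0.15 on the log2 scale (SE; adjusted p = 0.0113; 95% interval 0.17 to 0.89).

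The spread between samples differed from member to member. The coefficient of variation of Abca3 was 4.05% in DMSO and 20.2% in DNR, and that of Abca2 was 5.33% and 22.8%. For curated Abcb6 it went the other way, 20.5% in DMSO and 2.99% in DNR, and for Abcf2 it was 10.2% and 12.5%. With 3 samples a group the difference in spread was not tested. The high DNR sample was replicate 3 for Abca3 and replicate 2 for Abca2, and the ratio of Abca3 to Abca2 ran from 1.20 to 2.51 among DNR samples and from 1.80 to 2.02 among DMSO samples.

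Abcf2 (chromosome 5, 24565341 to 24577467, minus strand) encodes a soluble ABC protein without membrane segments, of the subfamily that acts on ribosomes. The transcript NM_001190443 was the lowest of the 4 that rose in every sample. The DMSO samples held 0.84, 0.84 and 0.70 FPKM and the DNR samples 2.32, 2.17 and 2.75 FPKM. The lowest DNR sample was above the highest DMSO sample by more than the range of either group. The means were 0.793 ± 0.0808 and 2.41 ± 0.301 FPKM (SD, n = 3), with a ratio of 3.04 between them. The limma change was 0.93 ± 0.11 on the log2 scale (SE; adjusted p = 0.000651), and it was 1.49 with a pseudocount of 0.1 in place of 1. Because Abcf2 passed the filter only through its DNR samples, its direction was fixed and its p-value is no evidence of a difference. The listed transcript is 1 of 4 RefSeq transcripts of the gene.

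Abcb6 (chromosome 1, 75171640 to 75180392, minus strand) encodes a porphyrin transporter of mitochondria and endolysosomes that also carries the Langereis blood group antigen. It is the one member with more than 1 listed transcript, and these 2 are all that RefSeq has for the gene in the table used. The curated transcript NM_023732 had DMSO values of 4.12, 3.08 and 2.83 FPKM and DNR values of 5.63, 5.95 and 5.91 FPKM. All DNR samples lay within a narrow band above the DMSO samples, with means of 3.34 ± 0.684 and 5.83 ± 0.174 FPKM (SD, n = 3). The change was 0.66 ± 0.14 on the log2 scale (SE; limma, adjusted p = 0.00430; 95% interval 0.34 to 0.99).

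The predicted Abcb6 transcript XM_006496552 went the other way. Its DMSO values were 2.37, 2.82 and 3.28 FPKM, and it was at 0.02 FPKM in DNR replicate 3 and listed at 0 in the other two DNR samples. Its log2 change of -1.92 ± 0.12 (SE; limma, adjusted p = 6.16e-05) ranked 14 of 388 by size. That size depends on the pseudocount, with -4.77 at 0.1, and no fold is given against values at or near 0. Because the transcript passed the filter only through its DMSO samples, its direction was fixed and its p-value is no evidence of a difference.

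Added together, the Abcb6 transcripts came to 6.49, 5.90 and 6.11 FPKM in the DMSO samples and to 5.63, 5.95 and 5.93 FPKM in those with DNR. These sums overlapped between the groups. Their means were 6.17 ± 0.299 and 5.84 ± 0.179 FPKM (SD, n = 3; two-sided exact permutation p = 0.3). Fitted by limma with all gene sums, the change was -0.07 ± 0.08 on the log2 scale (SE; adjusted p = 0.466). The 95% interval of that change, -0.27 to 0.13, leaves out the 0.66 of the curated transcript. Its sign turned when all samples were brought to the same median (0.07; adjusted p = 0.534 by limma) and under quantile normalization (0.04; adjusted p = 0.588 by limma). Both scalings rest on the listed rows alone, so they are no scale of whole libraries. Over all 350 gene sums tested, 90.6% passed the threshold, 39.1% as higher and 51.4% as lower. The sums of Abca2, Abca3 and Abcf2, which hold 1 listed transcript each, were called higher. Abcb6 was 1 of 20 genes with called transcripts in opposite directions, and 16 of those gene sums did not pass.

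The split of the Abcb6 sum between its transcripts is a description, since the predicted one passed the filter only through the DMSO samples where it is high. It made up 36.5%, 47.8% and 53.7% of the sum in the DMSO samples and 0%, 0% and 0.337% in the DNR samples. The mean share was 46.0% ± 8.72 in DMSO and 0.112% ± 0.195 in DNR (SD, n = 3), given with no p-value. This share is taken within each sample and so does not depend on scaling between samples. Estimates for transcripts of 1 gene share reads, and which reads told the transcripts apart was not tested.

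**Figure D2:**
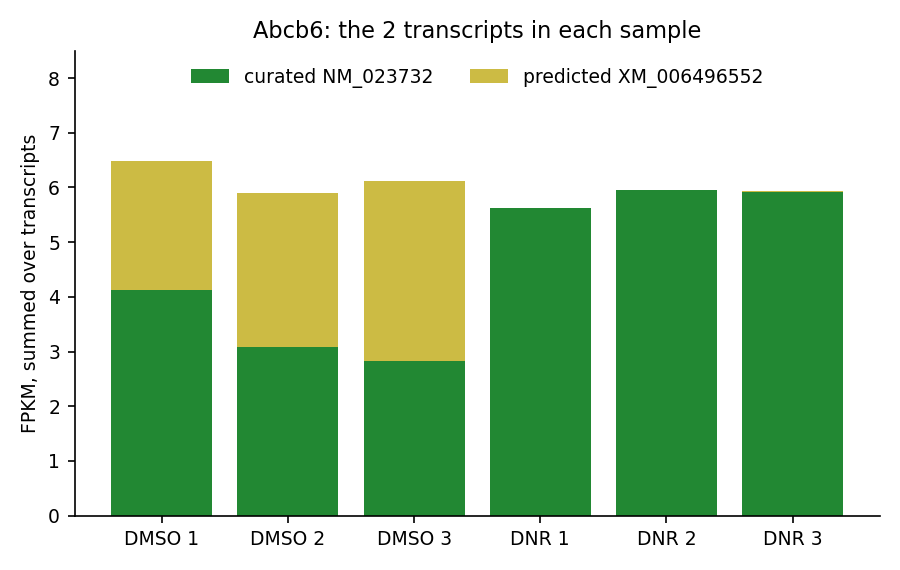
Stacked FPKM (vertical axis, from 0) of the curated (green) and predicted (yellow) Abcb6 transcripts in each of the 6 samples. The total height stays between 5.63 and 6.49 FPKM, while the yellow part is 2.37 to 3.28 FPKM in DMSO and at most 0.02 in DNR.

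Abcc5 (chromosome 16, 20331303 to 20426428, minus strand) encodes MRP5, an exporter of cyclic nucleotides and organic anions. The listed predicted transcript XM_006522213 is 1 of 23 RefSeq transcripts of the gene. It was at 0.67 FPKM in DNR replicate 2 and listed at 0 in the other 5 samples. It did not pass the filter and was not tested, and its values say nothing of the gene's other transcripts.

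The rises of the members lay among those of other transcripts of their level. Among called transcripts that rose, were above 0 in all 6 samples and had a mean of 1 to 10 FPKM, the median change was 0.83 (47 transcripts), and all but Abcf2 were below it. Of the 388 transcripts ordered from the largest rise down, Abcf2 stood at place 53, the curated Abcb6 transcript at 71, Abca2 at 84 and Abca3 at 85. The changes of Abca2, Abca3 and curated Abcb6 lay within each other's 95% intervals.

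**Figure D3:**
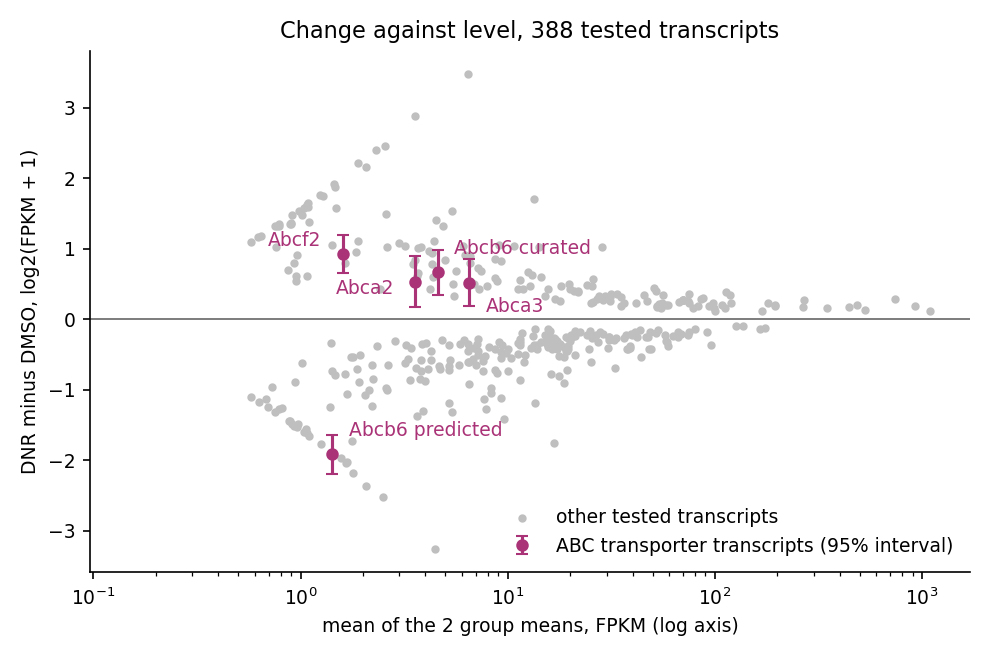
Change (DNR minus DMSO, log2(FPKM + 1)) against level (mean of the group means, FPKM, log axis) for 388 tested transcripts in grey and the 5 tested ABC transporter transcripts in purple with 95% intervals from limma. The members that rose lie at 0.52 to 0.93 inside the cloud of rising transcripts, and predicted Abcb6 lies at -1.92 on the lower edge formed by transcripts at or near 0 in DNR.

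Abca1, the cholesterol and phospholipid exporter of the same subfamily, moved against Abca2 and Abca3. Its abundant transcript had DMSO values of 18.75, 16.20 and 19.72 FPKM and DNR values of 14.83, 13.38 and 14.12 FPKM (log2 change -0.34 ± 0.09, SE; limma, adjusted p = 0.00665). The ratio of Abca3 to Abca1 within a sample was 0.282, 0.302 and 0.265 in DMSO and 0.488, 0.504 and 0.688 in DNR. The ratio of Abca2 to Abca1 was 0.153, 0.168 and 0.131 in DMSO and 0.258, 0.419 and 0.274 in DNR. Neither ratio overlapped between the groups (two-sided exact permutation p = 0.1 for each, the smallest that 3 against 3 allows). The permutation p was 0.16 when adjusted over 8 sums, shares and ratios, which include the Abcb6 share and the Abcf2 ratios. Every DNR sample was above every DMSO sample for Abca2 and Abca3 and below for Abca1. Both ratios therefore had to separate, and their p-values add no evidence beyond rows very probably selected on this contrast. These ratios do not change with scaling of whole samples, so the order of the groups in them holds under any such scaling.

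The ratio of Abcf2 to Abca2 was 0.291 ± 0.0188 in DMSO and 0.568 ± 0.165 in DNR, and its ratio to curated Abcb6 was 0.241 ± 0.0348 and 0.414 ± 0.0503 (SD, n = 3). Both sets of ratios were free of overlap between the groups. Abcf2 passed the filter only through its DNR samples, so its higher level there follows from how it was kept. The filter did not fix its ratios, as Abca2 and curated Abcb6 rose too, but the ratios are not independent of it. These ratios are given with no p-value. The ratio of Abca3 to Abca2 was 1.89 ± 0.118 in DMSO and 1.87 ± 0.654 in DNR (exact permutation p = 1), and that of curated Abcb6 to Abca2 was 1.22 ± 0.186 and 1.35 ± 0.253 (exact permutation p = 0.5). Their overlap does not show that these transcripts changed alike, as the DNR samples spread widely.

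**Figure D4:**
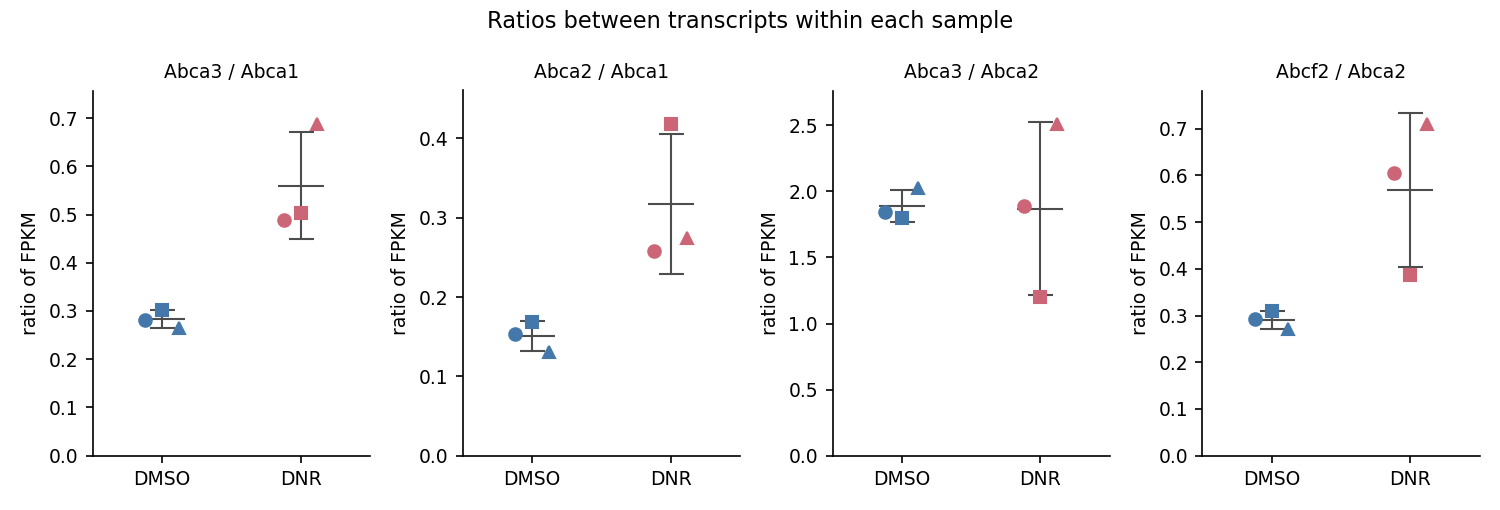
Ratio of FPKM between 2 transcripts within each sample (vertical axis, linear from 0), in DMSO and DNR. Points are samples, with circle, square and triangle for replicates 1, 2 and 3; wide ticks and bars are mean and SD, n = 3. Ratios of Abca3 and Abca2 to Abca1 and of Abcf2 to Abca2 lie higher in all DNR samples, while those of Abca3 to Abca2 overlap.

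RefSeq has 50 protein-coding genes under the family's symbols, and 6 of them are in the table with Abca1: 3 of 16 in Abca, 1 of 10 in Abcb, 1 of 10 in Abcc and 1 of 3 in Abcf. No gene of Abcd, Abce or Abcg was among the matched genes. The table covers 3.87% of all protein-coding genes and 12% of this family, which is a description of a small table with no test. The anthracycline exporters Abcb1a, Abcb1b, Abcc1 and Abcg2 were not among the matched genes and are not analysed here.

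The genes of the 4 transcripts that rose span 8.75 kb (Abcb6), 12.1 kb (Abcf2), 19.9 kb (Abca2) and 58.3 kb (Abca3) of the genome. The median gene span was 18.5 kb for 162 called transcripts that were higher and had a matched gene, and 71.5 kb for 214 that were lower. Abca1, which fell, spans 129.2 kb. The part of gene span in these results was not tested.

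The bases just upstream of the genes of the 4 transcripts that rose are given as sequence context. Of these genes, Abcb6 did not rise as a sum. Each run is the 100 bases before the most upstream RefSeq start of the gene, 5′ to 3′ on the gene's strand (RefSeq, GRCm38.p6), with GC boxes (GGGCGG on either strand), the site of Sp1-type factors, in capitals.
Abca2 (chr2:25428499-25428598): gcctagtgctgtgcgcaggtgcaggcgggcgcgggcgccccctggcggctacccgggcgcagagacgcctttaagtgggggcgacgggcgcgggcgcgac
Abca3 (chr17:24351821-24351920): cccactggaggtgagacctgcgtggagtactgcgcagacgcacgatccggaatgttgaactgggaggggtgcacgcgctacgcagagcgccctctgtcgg
Abcb6 (chr1:75180393-75180492): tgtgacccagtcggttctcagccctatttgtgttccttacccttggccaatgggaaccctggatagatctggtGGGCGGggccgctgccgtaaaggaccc
Abcf2 (chr5:24577468-24577567): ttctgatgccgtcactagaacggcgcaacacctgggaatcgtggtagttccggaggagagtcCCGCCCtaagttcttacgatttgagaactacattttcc

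In the 250 bases before an annotated start, GC content was 63.2% for Abca2, 67.6% for Abca3, 56.4% for Abcb6 and 52.8% for the upstream one of 2 Abcf2 starts, against a median of 52.4% over 32851 promoters. The Abca3 window precedes a start at 24352023, inside the gene and downstream of the start whose upstream bases are printed. The same windows held 20, 21, 9 and 13 CpG dinucleotides, where the median promoter held 6. In that window the GC box was found 1 time in Abca3, 2 times in Abcb6, 1 time in Abcf2 and 0 times in Abca2, and 32.7% of all promoters held it. A match is a description of letters and shows no binding.

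Other motifs were searched in the same 250-base windows on both strands. The CCAAT box (CCAAT) was found 1 time in Abcb6 and in 33.8% of all promoters, and TATAAA was found 2 times in Abcb6 and in 12.4% of all. Neither CACGTG (6.02% of all promoters) nor TGANTCA (6.75%) had a match in these 4 windows. No match of one motif overlapped a match of another there.

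Transcripts most like each member, by the smallest Euclidean distance over the 6 log2(FPKM + 1) values among named tested transcripts of other genes, belonged to genes outside the fixed lists. Nearest to Abca3 were transcripts of Osgin2, Cacna1i and Mideas, at distances of 0.469, 0.499 and 0.50. The Osgin2 transcript had DMSO values of 5.35, 4.22 and 5.89 FPKM and DNR values of 8.45, 8.88 and 10.15 FPKM. Nearest to Abca2 were transcripts of Ubap2l, Vps54 and Sh3kbp1 (0.383 to 0.611), and nearest to Abcf2 those of Tmem106c, Ndufs1 and Nek4 (0.376 to 0.524).

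For curated Abcb6 the nearest were Pitpnm2, Sh3kbp1 and Usp1 (0.486 to 0.523). For predicted Abcb6 they were Ggta1, Skil and Cyrib (0.376 to 0.498), all seen in DMSO and at 0.05 FPKM or less in every DNR sample. What these distances reflect was not tested.

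Of the genes that act beside these transporters some were listed, in a table that covers 3.87% of all protein-coding genes. Of 25 genes listed for sphingolipid, phospholipid and lysosomal lipid metabolism, 4 were in the table and 3 transcripts of 2 genes were tested, of which 1 rose and 2 fell (limma), where 43.0% of all tested transcripts were called higher and 56.7% lower. Psap, whose product is cut into the saposins that activate lysosomal lipid hydrolases, rose in its main transcript from 452 ± 8.02 to 522 ± 14.1 FPKM (SD, n = 3; log2 change 0.21). Another Psap transcript fell from 22.7 ± 2.62 to 12.7 ± 2.86 FPKM (-0.81). Lpin2, a phosphatidate phosphatase gene, fell by 1.41 on the log2 scale.

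Of 15 sterol and LXR genes, 4 were listed, and 3 transcripts were tested: 2 rose and that of Abca1 fell (limma), beside the same 43.0% higher and 56.7% lower over all. The direction of Nr1h3, one of the rises, was fixed by the filter, which it passed only through its DNR samples. Hmgcs1, of cholesterol synthesis, had DMSO values of 12.91, 15.44 and 16.73 FPKM and DNR values of 22.11, 21.95 and 19.62 FPKM. A predicted transcript of Nr1h3, the gene of the sterol sensor LXR alpha, was listed at 0 in DMSO and was at 1.42, 1.82 and 1.28 FPKM in DNR. An untested transcript of Nr1h2, of LXR beta, had DMSO values of 0.97, 9.91 and 0.54 FPKM and DNR values of 0.31, 0.12 and 0 FPKM, with 1 DMSO sample far above the rest.

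Lists closer to single members had nothing to test. With 3.87% of all protein-coding genes in the table, absence of the genes of a short list says little. Of 23 heme and porphyrin genes, which bear on Abcb6, 0 were in the table, as were 0 of 14 peroxisomal and mitochondrial partner genes and 0 of 9 peptide transporter and class I loading genes such as Tap1 and Tap2. Of 20 translation factor genes, which bear on Abcf2, 2 were listed and 0 tested. Of 24 genes for anthracycline transport, metabolism and targets, 2 were listed, Abcc5 and Slc22a5, and 0 were tested.

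The label of the cells could not be checked from CD8 T cell markers, since 0 of 12 were in the table. Of the marker lists of other cell types, monocytes and macrophages had 1 of 7 listed (Csf1r), whose level was 58.45 to 63.23 FPKM in DMSO and 69.62 to 79.11 in DNR. That level was above every ABC transporter member in every sample. Which cells the RNA of the members came from was not tested. B cell markers had 2 of 8 listed (Spib and Ebf1), with sums of 0 to 2.27 FPKM in DMSO and 1.88 to 5.97 in DNR. In these sums 1 Spib transcript was at 0 in every DNR sample and another at 0 in every DMSO sample. Dendritic cell markers had 1 of 5 listed (Itgax), with sums of 0.96 to 1.23 FPKM in DMSO and 1.14 to 1.51 in DNR. The sums hide opposite moves: 1 Itgax transcript was at 0 in every DNR sample and another at 0 in every DMSO sample. Neutrophil markers had 1 of 4 listed (1.43 FPKM in 1 DMSO sample), and the lists for CD4 T cells, natural killer cells, and erythroid cells and platelets 0. Csf1r moved with the rises of the Abca2, Abca3, curated Abcb6 and Abcf2 transcripts, and the part of other cell types in those rises was not tested. In bulk samples such as these, fewer cells of a type and less RNA per cell cannot be told apart.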

How the data were processed

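RNA-seq of 3 DMSO and 3 DNR samples was used, from libraries prepared with a SMARTER kit, per the labels' protocols. The authors deposited log2(FPKM + 1) for 1037 RefSeq transcripts. The column names say FPKM, and the log2 scale was read from the values: back-transformed, 100% of cells had 2 decimals within 1e-06 FPKM. That rounding leaves no whole-read steps, so depth was not recovered. Builds were GRCm38 and mm10, per the submitters' processing notes. Aligner, quantifier, annotation release and row selection: not given in the sources used here.

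Accessions were matched without version to RefSeq GRCm38.p6 (1013 of 1037). The deposited log2 values were compared with limma 3.58.1 in R 4.3.3 (treatment alone, mean-variance trend, two-sided, Benjamini-Hochberg over 388 transcripts, threshold 0.05). The fit was also run on simulated data with no selection of rows. That run cannot vouch for p-values from rows very probably selected on the contrast. The filter was 1 FPKM in at least 3 samples. Gene sums of listed transcripts were fitted the same way over 350 genes. Ratios within samples were compared with an exact permutation test. Alternatives were another pseudocount, other filters and scalings, no trend, a replicate block, and each sample left out.

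The design had assumed linear FPKM and planned the transformation that the file already carries. Every member is named, with up to 4 tested transcripts of each list by adjusted p and the 3 nearest transcripts of each member; other names were chosen after their values were seen. The members and lists were chosen with earlier results of these data known.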

Additional observations from a re-analysis of the deposited data

Results flagged for a closer look

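Some untested transcripts had signal in DNR samples and were listed at 0 in every DMSO sample. The Abcc5 transcript reached 0.67 FPKM in 1 DNR sample. Among translation factor genes, a transcript of Eef2k, which encodes the kinase of elongation factor 2, reached 0.37, 0.35 and 0.13 FPKM in DNR replicates 1 to 3. A transcript of Eif2ak4, the gene of the amino acid sensor GCN2, was at 1.24 FPKM in DNR replicate 2 alone, and another was at 1.31 FPKM in DNR replicate 1 alone. All of these lie below the filter on low values, and the difference was not tested.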

How the results depend on the processing

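The 4 rises and 1 fall of ABC transporter transcripts kept their direction and stayed past the threshold (limma) under another pseudocount, the other filters, both scalings, no trend, the replicate block and with each sample left out; a sum per gene ended that for Abcb6. Of all 388 tested, 167 were called higher and 220 lower with a pseudocount of 0.1. Without DMSO replicate 1 it was 167 and 209, and with quantile normalization 149 and 171. Rows were very probably selected on this contrast, and the main filter fixed the directions of Abcf2 and predicted Abcb6. Staying past the threshold under these alternatives is therefore no independent evidence. Adjusted p-values over these alternatives, apart from the gene sum, reached at most 0.0387 for Abca2, 0.0288 for Abca3, 0.0154 for curated Abcb6, 0.00217 for predicted Abcb6 and 0.00653 for Abcf2. With each sample left out, changes ran from 0.38 to 0.61 for Abca2, 0.38 to 0.62 for Abca3, 0.58 to 0.79 for curated Abcb6, -2.01 to -1.83 for predicted Abcb6 and 0.86 to 0.98 for Abcf2. As a sum per gene, Abcb6 was at -0.0675 (limma, adjusted p = 0.466), which ends the call of the predicted transcript and turns the sign of the curated one. That sum was at 0.0720 with samples shifted to a common median and at 0.0443 with quantile normalization. Shifting to a common median moves DNR up by 0.185 and left 106 of 388 transcripts called lower, against 220 as deposited. That median, like the quantiles, is taken over listed rows very probably selected on this contrast, so it is no scale of whole libraries. The replicate numbers share no stated origin and did not pair the samples: deviations of same-numbered samples correlated at -0.0546, 0.0463 and 0.0432. With the replicate block the changes were the same and adjusted p-values were 0.0184 for Abca2, 0.0128 for Abca3, 0.00969 and 0.00217 for curated and predicted Abcb6 and 0.00449 for Abcf2. Depth is unknown, so what it limits cannot be given.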
